A study of Mus musculus with 12 samples.

Results

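The genes described here are 8 genes of the eosinophil, a granulocyte of the bone marrow: the granule protein genes *Prg2*, *Epx*, *Prg3*, *Ear1*, *Ear2*, and *Ear6* and the receptor genes *Ccr3* and *Il5ra*. They were found by symbol among the 47643 genes of the deposited expression table, and all 8 passed the filter on low values (a 12-library mean not below 1 TPM), as did 14479 genes in all. TPM, transcript abundance scaled to gene length and library total, is the deposited unit. The set was chosen by name with levels and group differences of these same libraries already known, and which of those values weighed in the choice is not on record. Every level and difference of the 8 genes is therefore given as a description. Where members called in the fit over all genes are counted, the share of all genes called stands beside the count, and nothing is read from it as a test of the set. The other gene lists used below were also chosen with earlier results of these data known. Their counts and p-values are descriptions too.

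The study asked whether the long noncoding RNA *Firre* acts as an RNA in blood cell development, and sequenced common lymphoid progenitors (CLPs), marrow cells on the way to B, T, and natural killer cells. There are 12 RNA-seq libraries, 1 from each adult male mouse of lines bred with C57BL/6J, in 3 groups of 4: wild type (WT), ∆*Firre*, labelled KO, and *Firre* rescue. ∆*Firre* mice lack the gene body and promoter of *Firre* in the whole body, after a cross to a CMV-Cre deleter. The allele came from JM8 embryonic stem cells and was crossed back to C57BL/6J for 3 generations. *Firre* rescue mice carry the same deletion together with a *Firre* cDNA behind a tet-responsive element and an rtTA3 transgene driven by the CAG promoter, and were fed doxycycline. The transgene is thus switched on throughout the body and not only in CLPs, and no library from rescue mice without doxycycline was analysed here. The rtTA3 line was of the strain B6N.FVB(Cg) and was kept by breeding its males to C57BL/6J females. The cells were sorted as lineage-negative, Sca1 low, cKit low, and IL7Rα positive, and the lineage cocktail included an antibody to CD11b, a surface protein that eosinophils carry.

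As deposited, *Firre* was at 25.2 to 31.6 TPM in WT, listed at 0 in the 4 ∆*Firre* libraries, and at 59.9 to 174 TPM in *Firre* rescue. The reads behind the TPM values, recovered from their spacing, came to 10851296 to 17916380 per WT library, 14162362 to 17315950 per ∆*Firre* library, and 25399640 to 32171797 per rescue library. Genes above 0 numbered 15472 to 19877 in WT, 17910 to 19098 in ∆*Firre*, and 15140 to 16835 in rescue. The 12 markers of the CLP gate and of lymphoid progenitors were all above the filter, with a summed level of 5931 to 8936 TPM per library, most of it *Dntt*, at 4315 to 6725 TPM. Of the 12, 4 were called higher and 2 lower (limma, adjusted p of 0.1 or less) in each rescue comparison, where 8.58% of all genes were called higher and 19.3% lower against ∆*Firre*, and 4.82% and 19.4% against WT. *Igll1* and *Vpreb1*, surrogate light chain genes of B cell progenitors, were at 93.4 to 210 and 147 to 257 TPM in rescue, and at 19.6 to 39.9 and 28.0 to 40.3 TPM in ∆*Firre*. *Kit*, which encodes the cKit of the sort gate, went the other way, at 48.2 to 62.3 TPM in rescue and 68.6 to 80.9 TPM in ∆*Firre*. *Cd34* was also lower, at 166 to 188 TPM in rescue and 213 to 234 TPM in ∆*Firre*. The rescue libraries have library numbers in a range of their own, so rescue genotype, strain background, diet, and preparation cannot be told apart. WT and ∆*Firre* mice were split evenly, 2 and 2, over both remaining ranges.

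Eosinophils arise in the marrow from progenitors in which Gata1 is needed for the lineage, and interleukin 5 drives their growth and release. Their granules hold cationic proteins: *Prg2* encodes major basic protein, *Prg3* a homologue of it, *Epx* eosinophil peroxidase, and the *Ear* genes ribonucleases of the eosinophil-associated family. *Ccr3* is the receptor for the eotaxins, and *Il5ra* the chain that binds interleukin 5 and signals with the shared chain encoded by *Csf2rb*. Several of these genes are also used by other cells, *Prg2* and *Ccr3* by basophils and *Il5ra* by some B cells. In sorted cells as in any bulk sample, fewer cells of a type and less RNA per cell cannot be told apart.

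*Ear1*, *Ear2*, and *Ear6* lie on chromosome 14 of GRCm38 and are close copies of each other. The 250 bases before their start sites are shown from RefSeq (GRCm38.p6), read 5′ to 3′ in the direction of the gene. These bases lie before the transcripts and do not bear on how reads are assigned. For that, the transcripts themselves are compared further below. Capitals in *Ear2* and *Ear6* mark the bases that are not identical to *Ear1* in a pairwise alignment. *Ear1* is at chr14:43819640-43819889 on the minus strand, *Ear2* at chr14:44102404-44102653 on the plus strand, and *Ear6* at chr14:51853518-51853767 on the plus strand.
Ear1: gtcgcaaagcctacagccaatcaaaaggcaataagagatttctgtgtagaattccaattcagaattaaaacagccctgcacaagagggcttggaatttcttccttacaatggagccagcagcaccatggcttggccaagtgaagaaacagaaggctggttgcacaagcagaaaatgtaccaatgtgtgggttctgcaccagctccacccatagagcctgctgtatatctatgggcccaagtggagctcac
Ear2: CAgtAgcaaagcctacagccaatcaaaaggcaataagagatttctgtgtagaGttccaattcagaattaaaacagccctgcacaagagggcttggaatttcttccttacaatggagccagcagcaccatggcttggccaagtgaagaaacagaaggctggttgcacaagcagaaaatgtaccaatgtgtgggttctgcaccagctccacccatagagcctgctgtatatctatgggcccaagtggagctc
Ear6: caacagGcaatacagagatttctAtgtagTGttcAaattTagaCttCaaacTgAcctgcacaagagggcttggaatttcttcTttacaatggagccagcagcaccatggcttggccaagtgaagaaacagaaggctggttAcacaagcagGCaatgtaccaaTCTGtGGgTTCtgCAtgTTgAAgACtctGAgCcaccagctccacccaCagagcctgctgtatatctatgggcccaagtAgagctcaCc
Of the 250 upstream bases, 246 of *Ear2* and 213 of *Ear6* matched *Ear1*. Within the coding sequence, *Ear1* and *Ear2* were identical at 95.3% of aligned positions and *Ear1* and *Ear6* at 87.6%. Of all stretches of 50 bases in the *Ear1* transcript, 23.8% also occur in *Ear2*, and 28.6% occur in at least 1 of 6 other annotated genes of the family. For *Ear2* the share with any of the 6 was 37.6%, and for *Ear6* it was 0.954%. *Ear3*, *Ear4*, *Ear7*, and *Ear12* were not compared, so the shares for the whole family could be higher. How reads from shared stretches were counted is not given in the sources used here and was not tested. As far as the genes compared go, values of *Ear1* and *Ear2* are therefore less certain than those of *Ear6*. *Prg2* and *Prg3*, neighbours on chromosome 2, shared no stretch of 50 bases, with coding sequences identical at 65.8% of aligned positions.

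*Epx* and *Prg3*, which had the profiles most like that of *Ear6* over the libraries in the comparison of profiles further on, are shown in the same way. *Epx* is at chr11:87875537-87875786 on the minus strand and *Prg3* at chr2:84987965-84988214 on the plus strand, and capitals in *Prg3* mark the letters TTATCA, which read TGATAA on the other strand.
Epx: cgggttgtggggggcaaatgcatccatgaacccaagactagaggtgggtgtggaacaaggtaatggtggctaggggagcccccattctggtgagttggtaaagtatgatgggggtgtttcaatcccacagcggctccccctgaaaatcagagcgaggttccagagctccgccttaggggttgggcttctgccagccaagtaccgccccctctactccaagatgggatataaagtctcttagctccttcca
Prg3: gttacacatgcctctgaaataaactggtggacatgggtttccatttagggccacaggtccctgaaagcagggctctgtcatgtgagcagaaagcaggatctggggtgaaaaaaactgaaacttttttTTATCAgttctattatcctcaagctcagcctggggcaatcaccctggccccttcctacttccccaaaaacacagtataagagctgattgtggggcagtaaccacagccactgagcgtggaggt
The windows of 300 bases around the start sites (250 before and 50 after) were searched on both strands for AGATAA and TGATAA, forms that GATA factors bind, and for TTGCGCAA and TTGCGAAA, forms that C/EBP factors bind. Of 32851 RefSeq windows of this length, 11.2% held AGATAA and 9.05% TGATAA. Among the 7 members with a window, *Il5ra* and *Ccr3* held AGATAA, starting 74 and 30 bases before the start site, and *Prg3* held TGATAA, whose letters begin 123 bases before it. TTGCGCAA was in 0.183% and TTGCGAAA in 0.174% of all windows, and in 0 of the 7. The bases before the *Ccr3* start site used, chr9:124021721-124021970, lie inside the annotated span of the gene, 124017825 to 124031692. The stretch shown for *Prg3*, which ends at 84988214, also runs past the first base of the annotated span of that gene, 84988196. For both genes the start site used is thus not the first base of the span. No window was used for *Prg2*.

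*Prg2* (ENSMUSG00000027073.5, chromosome 2 of GRCm38, 84980461 to 84983632) was the most abundant of the 8 genes, with a mean level of 73.0 TPM over the 12 libraries, against 1.63 to 5.19 TPM for the other 7. In WT it was at 90.4 TPM in mouse 6, 68.5 in mouse 8, 19.4 in mouse 10, and 16.1 in mouse 11. In ∆*Firre* it was at 119 TPM in mouse 8, 164 in mouse 9, 68.6 in mouse 11, and 42.8 in mouse 12. In *Firre* rescue it was at 171 TPM in mouse 1, 112 in mouse 2, 0.113 in mouse 3, and 4.56 in mouse 4. The groups overlapped, and the rescue group held both the highest and the lowest library of the 12. The value in rescue mouse 3 rests on 1 read, with an exact 95% Poisson interval of 0.0253 to 5.57 reads, and that in rescue mouse 1 on 1307 reads. Group means were 48.6 ± 36.8, 98.6 ± 53.8, and 71.8 ± 83.7 TPM (SD, n = 4 each) in WT, ∆*Firre*, and rescue.

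*Epx* (ENSMUSG00000052234.2, chromosome 11, 87863997 to 87875536) stood at 3.84 and 2.49 TPM in WT mice 6 and 8 and was listed at 0 in WT mice 10 and 11. In ∆*Firre* it was at 3.82, 9.62, 2.01, and 0.391 TPM in mice 8, 9, 11, and 12. Rescue mice 1 and 2 were at 13.8 and 7.90 TPM and mice 3 and 4 listed at 0. The libraries in which *Prg2* was low in WT and rescue were thus the ones with no *Epx* read. A count of 0 has an exact 95% Poisson interval of up to 3.69 reads. The floor of 3 reads used for bounds here is for *Epx* worth 0.187 and 0.238 TPM in WT mice 10 and 11. In rescue mice 3 and 4 it is worth 0.104 and 0.116 TPM. The rescue libraries had the most reads of the study, though fewer genes above 0 than the ∆*Firre* libraries. A level such as that of WT mouse 6, which rests on 50 reads, lies above what these counts allow.

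*Prg3* (ENSMUSG00000027072.13, chromosome 2, 84988196 to 84996559) stood at 3.10 and 1.80 TPM in WT mice 6 and 8, at 3.46 and 0.702 TPM in ∆*Firre* mice 8 and 9, and at 12.5 and 15.5 TPM in rescue mice 1 and 2. The other 6 libraries were listed at 0 or, in rescue mouse 4, at 0.112 TPM from 1 read. Outside rescue mice 1 and 2 the gene had at most 16 reads in a library, so differences among those libraries are near the limit of the depth.

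*Ear6* (ENSMUSG00000062148.6, chromosome 14, 51853768 to 51854643) was at 0.668, 4.81, 0, and 0.230 TPM in WT mice 6, 8, 10, and 11. In ∆*Firre* it was at 1.95, 4.41, 1.25, and 0 TPM in mice 8, 9, 11, and 12. Rescue mice 1 and 2 were at 15.3 and 13.5 TPM and mice 3 and 4 listed at 0. The same pair of rescue mice was again high and the same pair at 0.

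*Ear1* (ENSMUSG00000072601.4, chromosome 14, 43818765 to 43819639) had a level of 6.05 TPM in WT mouse 6 and was listed at 0 in the other 3 WT mice. All 4 ∆*Firre* libraries held it, at 6.74, 14.8, 5.13, and 3.67 TPM in mice 8, 9, 11, and 12. Rescue mice 1 and 2 were at 4.05 and 15.6 TPM and mice 3 and 4 again at 0. The ∆*Firre* values thus lay above 3 of the 4 WT values, and WT mouse 6 lay within them.

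*Ear2* (ENSMUSG00000072596.4, chromosome 14, 44102654 to 44103531) gave 0.878, 3.95, 0, and 3.02 TPM in WT mice 6, 8, 10, and 11. ∆*Firre* mice 8, 9, 11, and 12 were at 1.71, 10.2, 4.11, and 3.72 TPM. The 4 rescue mice, 1 to 4, were at 1.52, 28.6, 0, and 4.58 TPM. Here rescue mouse 1, high for *Prg2*, *Epx*, *Prg3*, and *Ear6*, was low, and rescue mouse 4 was above it.

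*Ccr3* (ENSMUSG00000035448.8, chromosome 9, 124017825 to 124031692) did not follow the granule genes. In WT it was at 17.2 TPM in mouse 6, 1.39 in mouse 8, 5.90 in mouse 10, and 1.59 in mouse 11. In ∆*Firre* it was at 6.02, 3.82, 3.91, and 3.76 TPM in mice 8, 9, 11, and 12. In rescue it was at 0, 11.1, 3.12, and 1.82 TPM in mice 1, 2, 3, and 4. Rescue mouse 1, with the highest *Prg2* and *Epx*, was the only library of the 12 with no *Ccr3* read. Rescue mouse 2, of like depth, had 405 *Ccr3* reads. The ∆*Firre* group was the tightest, at 4.38 ± 1.09 TPM, against 6.51 ± 7.40 in WT and 4.01 ± 4.90 in rescue (SD, n = 4 each).

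*Il5ra* (ENSMUSG00000005364.11, chromosome 6, 106710375 to 106749037) had the lowest mean of the 8 genes, 1.63 TPM, and was above 0 in all 12 libraries. In WT mice 6, 8, 10, and 11 it was at 1.18, 2.47, 1.91, and 4.26 TPM. ∆*Firre* mice 8, 9, 11, and 12 were at 1.15, 1.54, 2.92, and 2.05 TPM. In rescue it was at 0.612, 0.753, 0.608, and 0.119 TPM in mice 1, 2, 3, and 4. Every rescue library lay below every WT and every ∆*Firre* library, while WT and ∆*Firre* overlapped. The rescue values rest on 4 to 30 reads in libraries of greater depth. Means were 2.45 ± 1.31, 1.91 ± 0.766, and 0.523 ± 0.278 TPM (SD, n = 4 each) in WT, ∆*Firre*, and rescue.

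**Figure D1:**
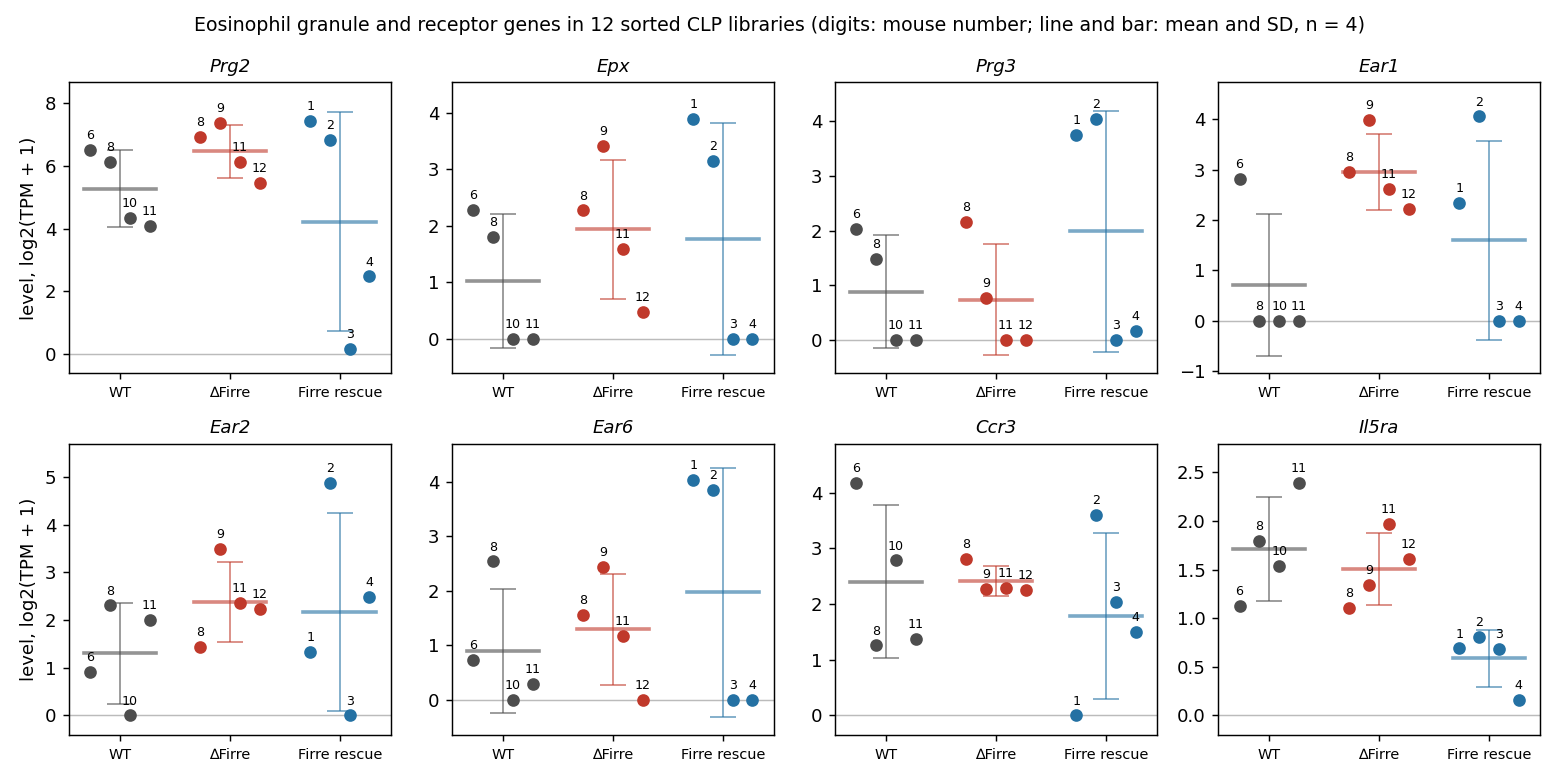
Level of each of the 8 genes, as log2(TPM + 1), in the 12 libraries by group, with the mouse number at each point and the mean and SD of 4 libraries as a line and bar. Rescue mice 1 and 2 are high and mice 3 and 4 low for *Prg2*, *Epx*, *Prg3*, *Ear1*, and *Ear6*, and the 4 rescue points of *Il5ra* lie below all others.

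The granule genes spread widely within groups. Pooled over the 3 groups on the scale of log2(TPM + 1), the within-group SD was 2.19 for *Prg2*, larger than that of 98.8% of the genes tested. For *Epx* the SD was 1.54, for *Prg3* 1.53, for *Ear1* 1.47, for *Ear2* 1.43, and for *Ear6* 1.58, each above that of 96.0% to 96.9% of genes. *Ccr3* had an SD of 1.18, above 93.3% of genes. *Il5ra*, with an SD of 0.41, was above 65.1%. These shares are descriptions, since the SD of low genes also holds counting error.

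Summed over the 6 granule genes, the level was 105 and 81.6 TPM in WT mice 6 and 8 and 19.4 and 19.3 TPM in WT mice 10 and 11. It was 137, 204, 81.1, and 50.6 TPM in ∆*Firre* mice 8, 9, 11, and 12. In rescue it was 218 and 193 TPM in mice 1 and 2, but 0.113 and 9.25 TPM in mice 3 and 4. *Prg2* made up 80.5% to 87.1% of the sum in ∆*Firre* libraries and 83.2% to 100% in WT. In rescue mice 1, 2, 3, and 4 its share was 78.4%, 58.0%, 100%, and 49.3%, the 100% in mouse 3 resting on 1 read.

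Markers of other cells were read in the same libraries. Of the cells read here and below, neutrophils, monocytes, and mature B cells are ones that the lineage antibodies are meant to remove. The basophil and mast cell list, 12 genes with mast cell protease *Mcpt8* and *Prss34* among them, summed to 1063 to 9085 TPM in WT, 2943 to 4342 TPM in ∆*Firre*, and 64.1 to 142 TPM in rescue. Its highest library was WT mouse 6, which was also the highest for *Ccr3*, and 3 of its 12 genes were listed at 0 in all libraries. Rescue mice 1 and 2 thus had *Prg2* above every WT library, at a low level of the basophil list. All 8 tested genes of that list were called lower in rescue than in ∆*Firre* and than in WT (limma, adjusted p of 0.1 or less), where 19.3% and 19.4% of all genes were called lower. The neutrophil granule list, 13 genes, summed to 513 to 1543 TPM in WT, 329 to 1874 TPM in ∆*Firre*, and 197 to 1668 TPM in rescue. It was high in rescue mouse 1, at 1668 TPM, and low in rescue mouse 2, at 359 TPM, although both were high for the granule genes of the eosinophil. The part of other cells in these levels was not tested.

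**Figure D2:**
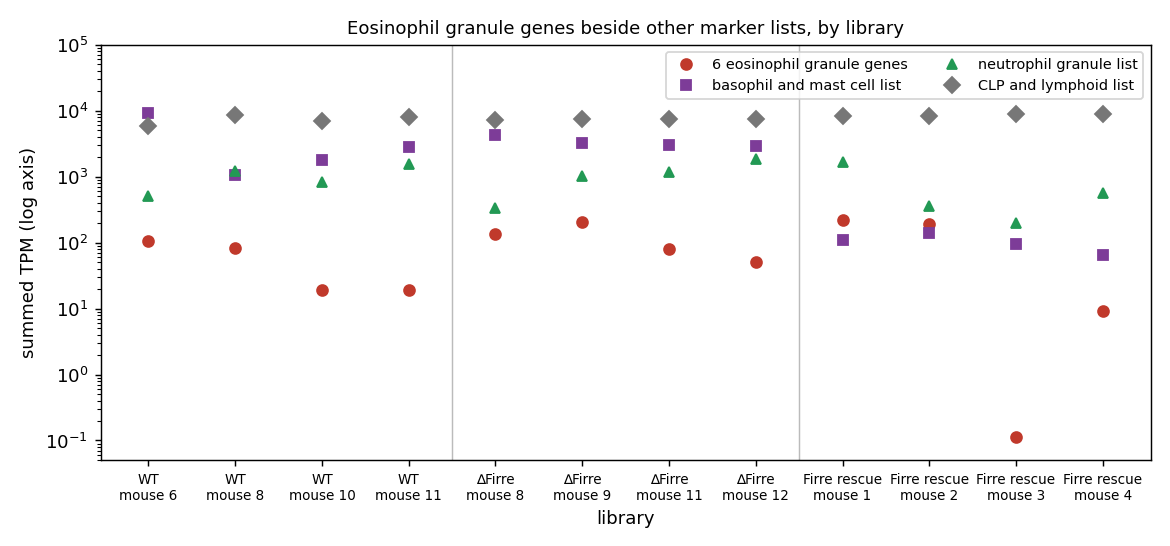
Summed TPM (log axis) of the 6 eosinophil granule genes and of 3 marker lists in each of the 12 libraries. The eosinophil genes fall to 0.113 TPM in rescue mouse 3 and reach 218 TPM in rescue mouse 1, while the basophil and mast cell list is at 142 TPM or less in all 4 rescue libraries.

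Between ∆*Firre* and WT, 6 of the 8 genes had a higher mean in ∆*Firre* on the scale of log2(TPM + 1) and 2 a lower one, with a median difference of 0.66, and −0.06 for the whole of the genes tested. Among the 8 genes 0 were called (limma, adjusted p of 0.1 or less), where 0.0207% of all genes were. An unadjusted p under 0.05 was found for 1 of them, where 767 of all 14479 genes tested had one. With limma-voom on the recovered reads 0 of the 8 were called, and 0 of all genes. The largest difference was that of *Ear1*, 2.24 with a standard error (SE) of 0.91, and it was 2.94 without WT mouse 6, the only WT library with *Ear1* reads. *Prg2* differed by 1.19 (SE 1.31), *Ear2* by 1.07 (SE 0.88), and *Epx* by 0.92 (SE 0.95), and the other 4 by −0.21 to 0.40. With 1 WT or ∆*Firre* library left out at a time, *Ear1* ran from 1.89 to 2.94, *Prg2* from 0.80 to 1.61, *Ear2* from 0.64 (without WT mouse 10) to 1.41, *Epx* from 0.43 (without ∆*Firre* mouse 9) to 1.40, and *Ear6* from 0.02 (without ∆*Firre* mouse 9) to 0.95. *Prg3* (−0.62 to 0.24), *Ccr3* (−0.37 to 0.60), and *Il5ra* (−0.40 to 0.02) took both signs. For 6 of the 8 genes the difference was smaller than 1 SE. Within the 2 ranges of library numbers that hold both groups, with 2 libraries of each, *Ear1* differed by 2.78 and 1.70, *Prg2* by 1.41 and 0.98, and *Epx* by 1.03 and 0.80. The other 5 genes changed sign between ranges, *Ccr3* with 1.24 and −1.22 and *Ear2* with −0.26 and 2.41. The median difference of the 8 genes was 0.24 without ∆*Firre* mouse 9, 0.36 without WT mouse 10, 0.39 without WT mouse 11, and 1.06 without WT mouse 8.

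Between *Firre* rescue and ∆*Firre*, 6 of the 8 genes had a lower mean in rescue, with a median difference of −0.41 against −0.16 over all genes tested. *Il5ra* was the 1 member called, where 27.9% of all genes were called, 8.58% higher and 19.3% lower. *Prg2* differed by −2.24 (SE 1.31) and *Ear1* by −1.35 (SE 0.91), while *Prg3* was higher by 1.26 (SE 0.95) and *Ear6* by 0.68 (SE 0.98). *Epx*, *Ear2*, and *Ccr3* differed by −0.18, −0.20, and −0.62. With 1 rescue library left out at a time, the difference of *Prg2* ran from −3.31 without mouse 1 to −0.89 without mouse 3, that of *Epx* from −0.89 to 0.41, *Prg3* from 0.57 to 1.92, *Ear6* from −0.01 to 1.34, *Ear1* from −2.17 to −0.81, *Ear2* from −1.11 to 0.52, and *Ccr3* from −1.23 to −0.03. The median of the 8 genes was −1.05 without rescue mouse 2 and −0.15 without rescue mouse 3. The directions also moved with the scale. After quantile normalization *Epx* and *Ear2* turned to 0.19 and 0.26, and the median was 0.07. With limma-voom *Ear6* turned to −0.26, and the median was −1.90.

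Between *Firre* rescue and WT, 5 genes had a higher and 3 a lower mean in rescue, with a median difference of 0.80 against −0.21 over all genes tested. Again *Il5ra* was the 1 member called, where 24.3% of genes were called, 4.82% higher and 19.4% lower. *Prg3* differed by 1.11 (SE 0.95), *Ear6* by 1.08 (SE 0.98), *Ear1* by 0.89 (SE 0.91), *Ear2* by 0.87 (SE 0.88), and *Epx* by 0.74 (SE 0.95). These differences fell to 0.42 for *Prg3*, 0.07 for *Ear1*, and −0.04 for *Ear2* without rescue mouse 2, and to 0.39 for *Ear6* and 0.03 for *Epx* without rescue mouse 1, and were 1.33 to 1.77 for the 5 genes without rescue mouse 3. *Prg2*, in contrast, differed by −1.05 (SE 1.31), or by 0.30 without rescue mouse 3. *Ccr3* differed by −0.62 (SE 0.73), or by −0.02 without rescue mouse 1. The median of the 8 genes was 0.02 without rescue mouse 2, 0.21 without rescue mouse 1, 0.42 without WT mouse 10, 0.53 without WT mouse 11, and 1.38 without rescue mouse 3. Both rescue comparisons share the rescue libraries, and the 2 comparisons with WT share the WT libraries.

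For *Il5ra* the difference was −0.92 (SE 0.37) against ∆*Firre* and −1.13 (SE 0.37) against WT. Since the values were known when the gene was chosen, and shares of 27.9% and 24.3% of all genes were called in these comparisons, nothing is read from the call. With single libraries left out, the difference against ∆*Firre* lay between −1.05 (without ∆*Firre* mouse 8) and −0.76 (without ∆*Firre* mouse 11). The call against ∆*Firre* was lost without WT mouse 10, without any 1 of the 4 ∆*Firre* libraries, and without rescue mouse 1, 2, or 4. Against WT the difference lay between −1.32 (without WT mouse 6) and −0.90 (without WT mouse 11), and the call was lost without WT mouse 11 and without rescue mouse 4, where it was −0.98. The size of the difference moved with the scale: against ∆*Firre* and WT it was −1.95 and −2.16 with limma-voom on the recovered reads and −1.78 and −2.06 with a pseudocount of 0.1, but −0.32 and −0.42 with a pseudocount of 5, −0.52 and −0.75 after the GC content correction, and −0.06 and −0.37 after quantile normalization. The basophil list above, the antibody-secreting cell list (684 to 1404 TPM in WT, 1447 to 3199 in ∆*Firre*, 117 to 283 in rescue), and the list of type 2 innate lymphoid cells (96.9 to 134, 89.5 to 124, and 42.4 to 78.4 TPM) were lower in rescue as well. Within these lists *Igj* made up most of the antibody-secreting cell sum, at 1.18 to 195 TPM in rescue against 1369 to 3110 TPM in ∆*Firre*, while *Sdc1* was at 70.5 to 104 TPM in rescue and 43.0 to 58.1 TPM in ∆*Firre*, and *Il9r* of the innate lymphoid list was at 3.43 to 8.79 TPM in rescue and 0.398 to 1.55 TPM in ∆*Firre*. The mature B cell list was higher in rescue, at 424 to 753 TPM, with 139 to 261 TPM in the WT libraries and 194 to 246 TPM in the ∆*Firre* libraries. The part of these cells in the *Il5ra* level was not tested.

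**Figure D3:**
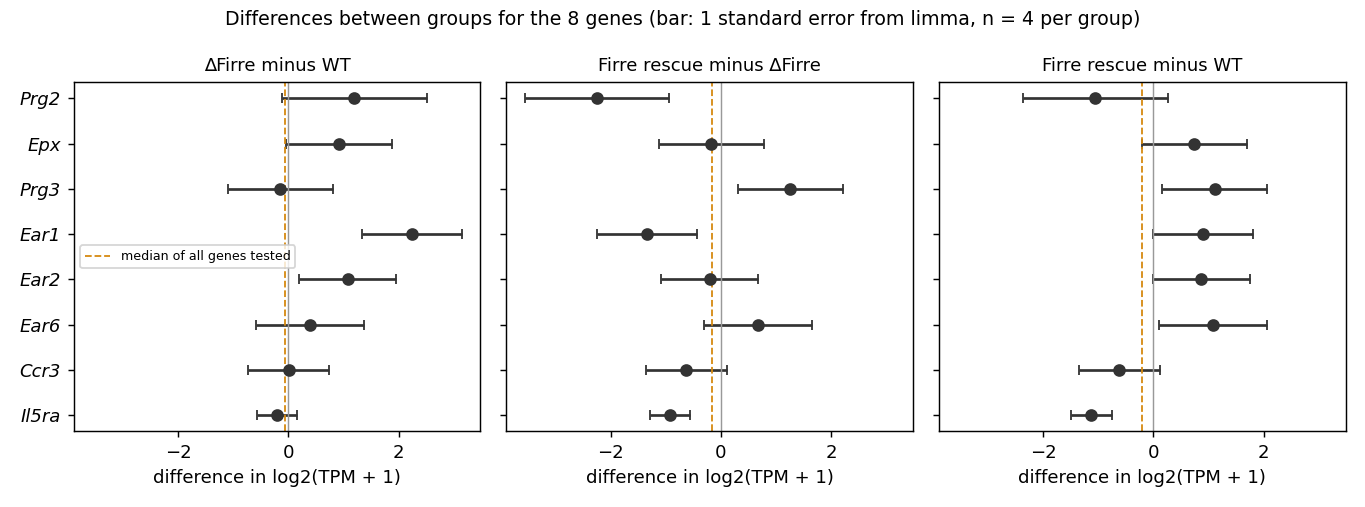
Difference in mean log2(TPM + 1) for each of the 8 genes in the 3 comparisons, with 1 standard error as a bar and the median of all genes tested as a dashed line. The bars of most granule genes reach or come near 0, and those of *Il5ra* lie below 0 in both rescue comparisons.

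Likeness of profiles was measured as the root mean square (RMS) difference between 2 genes in log2(TPM + 1) over the 12 libraries, after centring each gene on its own mean, and the 3 nearest of 13085 other tested genes with a symbol were taken for each member. The nearest gene to *Epx* was *Ear6* (RMS 0.64), and the nearest to *Ear6* were *Epx* and then *Prg3* (0.77). *Prg3* was nearest to *Ear6*, and *Prg2* to *Epx* (1.24). *Epx* was the second nearest gene to *Ear1* (0.97), after *Grtp1* (0.93). The nearest genes to *Ear2* were *Fpr1* (0.86), a receptor for formyl peptides, *Hmox1* (0.89), the enzyme heme oxygenase, and *Gm6563* (0.90).

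Neither receptor gene was among the nearest of any granule gene. *Ccr3* was nearest to *A130006I12Rik* (0.61), *Hyal3* (0.72), and *Selm* (0.73). *Il5ra* was nearest to *Slc25a27* (0.22), *Gm15834* (0.28), and *9030625A04Rik* (0.29). Taken from *Ccr3*, the other members stood at places 10115 to 12933 among the 13085 genes. The rescue libraries stand apart from the others in depth and in library number, while WT and ∆*Firre* overlap in both. Some of the nearest genes had as few as 23 reads in their highest library (*Scp2-ps2*, the third nearest to *Ear1*), and the measure favours genes of a like spread.

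**Figure D4:**
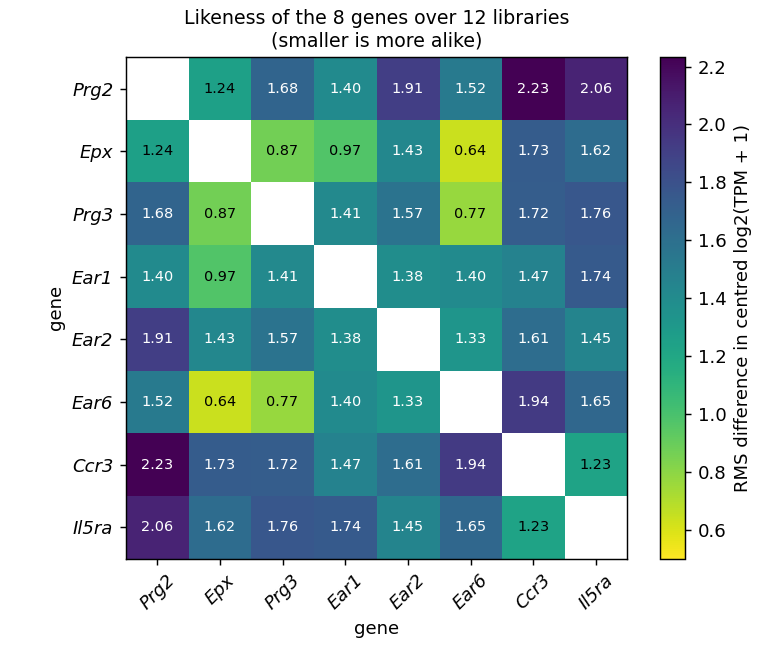
RMS difference in centred log2(TPM + 1) over the 12 libraries between each pair of the 8 genes, with smaller values for more alike profiles. *Epx*, *Ear6*, and *Prg3* form the closest trio, at 0.64, 0.77, and 0.87, and *Prg2* and *Ccr3* are the farthest apart, at 2.23.

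Other genes of the eosinophil programme were read from a list of 41: lineage transcription factors, cytokine receptor chains, surface and chemotactic receptors, enzymes of lipid mediators, and other ribonucleases of the family. Of these, 33 were found by symbol and 26 were tested. This list too was chosen with earlier results of these data known. Its counts, medians, and p-values are therefore descriptions, and nothing is read from them as a test of the list. Between ∆*Firre* and WT, 0 of the 26 were called, with a lowest limma adjusted p of 0.929 and a median difference of −0.12. None of the 26 had an unadjusted p under 0.05, where 767 of all 14479 genes tested did. With limma-voom 0 of the 26 were called, and 0 of all genes. Between rescue and ∆*Firre*, 16 were called lower, 3 higher, and 7 were not called, where 19.3% of all genes were called lower and 8.58% higher, and the median was −0.99 against −0.16 over all genes. Between rescue and WT, 13 were called lower, 1 higher, and 12 were not called, where 19.4% of all genes were called lower and 4.82% higher, and the median was −0.90 against −0.21. Many of these genes also serve basophils and mast cells, whose marker list was low in all rescue libraries, and some serve monocytes. The monocyte list summed to 364 to 466 TPM in WT, 325 to 521 TPM in ∆*Firre*, and 209 to 346 TPM in rescue, with 3 of its 6 genes called lower in each rescue comparison. The part of those cells was not tested.

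Among the transcription factors, *Gata2*, a factor of stem, mast, and basophil cells as well as eosinophils, was at 20.8 to 178 TPM in WT and 28.9 to 48.6 TPM in ∆*Firre*, but at 0 to 0.565 TPM in rescue. It fell by 5.04 on the log2(TPM + 1) scale against ∆*Firre* (SE 0.50, limma adjusted p = 8.19e-05). *Gata1*, required for the eosinophil lineage, was at 4.55 to 12.3 TPM in WT, 3.20 to 7.19 in ∆*Firre*, and 0.853 to 3.46 in rescue. Its difference was −0.96 against ∆*Firre* (SE 0.36, limma adjusted p = 0.0813), with the groups overlapping, and −1.49 against WT (SE 0.36, limma adjusted p = 0.0161). The call against ∆*Firre* was made in 13 of 24 other settings, and was lost with limma-voom, a pseudocount of 5, a filter at 5 TPM or none, and both other scalings, without ∆*Firre* mouse 9, 11, or 12, and without rescue mouse 3 or 4. *Cebpa*, a driver of granulocyte fate, fell by 1.6 against ∆*Firre* (SE 0.35, limma adjusted p = 0.00829) and was called lower against WT as well. *Zfpm1*, which encodes the Gata cofactor Fog1, rose instead, by 1.64 against ∆*Firre* (SE 0.29, limma adjusted p = 0.00305), and by 0.88 after the GC content correction. *Irf8* was also called higher against ∆*Firre*, by 0.36 (SE 0.14, limma adjusted p = 0.0911), with the groups overlapping, and was not called against WT. *Id2*, *Xbp1*, and *Trib1* were also called lower against ∆*Firre*, by −1.03, −0.60, and −1.16, with no overlap between the groups, and *Trib1* was not called against WT. Over the other settings run, *Id2* ranged from −1.15 to −0.63, the latter after the GC content correction, and *Trib1* from −2.16 to −0.47, with its call against ∆*Firre* lost after quantile normalization.

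The chain that *Il5ra* signals with, *Csf2rb*, was at 85.4 to 269 TPM in WT, 87.5 to 126 TPM in ∆*Firre*, and 17.0 to 29.7 TPM in rescue. It fell by 2.13 against ∆*Firre* (SE 0.32, limma adjusted p = 0.00107) and by 2.30 against WT (SE 0.32, limma adjusted p = 0.000913). *Csf2rb2*, a copy of it that pairs with the interleukin 3 receptor, fell by 1.89 and 1.98 (limma adjusted p = 0.0061 and 0.0053). *Il1rl1*, the receptor of interleukin 33, fell by 1.79 and 1.92 (limma adjusted p = 0.0275 and 0.0224). *Crlf2*, a chain of the receptor for thymic stromal lymphopoietin, rose by 0.71 against ∆*Firre* (SE 0.19, limma adjusted p = 0.0246) and was not called against WT. After the correction for GC content its difference against ∆*Firre* was 0.03 and was not called.

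Of the receptors and lipid enzymes, *Alox15* and *Hrh4* were listed at 0 in all 4 rescue libraries. *Alox15*, a lipoxygenase abundant in eosinophils, was at 49.7 ± 13.8 TPM in ∆*Firre* and 54.8 ± 49.6 TPM in WT (SD, n = 4 each). It was at least 372-fold lower in rescue than in ∆*Firre* and at least 409-fold lower than in WT, taking 3 reads per library as the floor. The histamine receptor *Hrh4* was at least 72.7-fold and 74.3-fold lower. WT mouse 6 held the highest WT level of both genes, and without it the bounds against WT were 230-fold for *Alox15* and 35.9-fold for *Hrh4*. *Alox5*, the enzyme that starts leukotriene synthesis, was at 16.8 to 92.2 TPM in WT, 26.4 to 37.9 TPM in ∆*Firre*, and 0 to 1.43 TPM in rescue, a difference of −4.40 against ∆*Firre* (SE 0.45, limma adjusted p = 9.61e-05). The chemokine receptor *Ccr1* fell by 4.95 (SE 0.50, limma adjusted p = 9.61e-05), to at most 0.285 TPM. With rescue levels at or near 0, the size of such differences moved with the scale: over 24 other settings it was −9.68 to −2.87 for *Ccr1*, −9.11 to −3.08 for *Gata2*, and −7.04 to −2.66 for *Alox5* against ∆*Firre*, all of them called. *Alox5ap*, the partner protein of *Alox5*, fell by 0.54 against ∆*Firre* (SE 0.19, limma adjusted p = 0.0618), a call lost without ∆*Firre* mouse 8 or 12, without rescue mouse 1, with the median ratio, with no filter, and after the GC content correction.

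In rescue mice 1 and 2, *Prg2*, *Epx*, *Prg3*, and *Ear6* were above every WT library, while *Alox15* and *Hrh4* were listed at 0 and *Gata2* was at 0.565 TPM or less. *Siglec5*, the symbol under which the eosinophil lectin Siglec-F was found, was at 3.77 to 14.7 TPM in WT, 6.21 to 11 TPM in ∆*Firre*, and 1.86 to 6.71 TPM in rescue. It was among the genes called lower against ∆*Firre*, by −1.09 (SE 0.40, limma adjusted p = 0.0736), with overlap between the groups, and was not called against WT. Of the other ribonucleases, *Ear5*, *Ear10*, *Ear11*, and *Ear14* were listed at 0 in all 12 libraries.

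**Figure D5:**
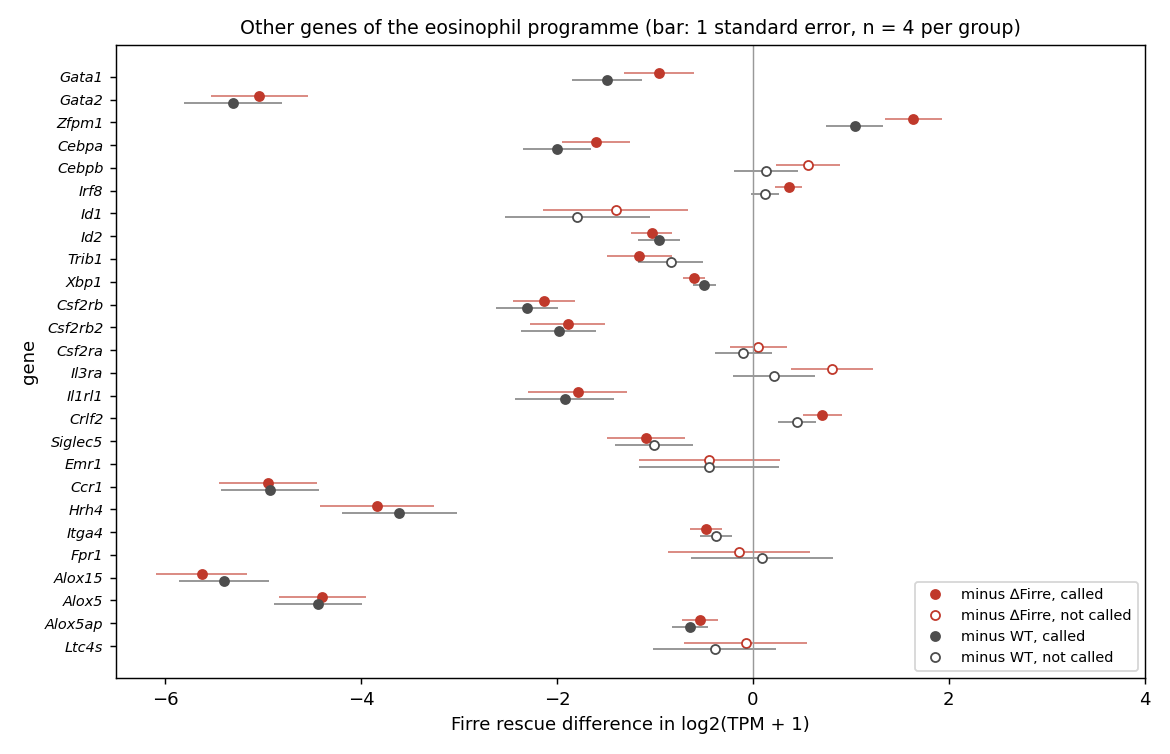
Difference in mean log2(TPM + 1) of *Firre* rescue from ∆*Firre* (red) and from WT (gray) for the 26 tested genes of the eosinophil programme list, with 1 standard error as a bar. Filled points were called with limma at an adjusted p of 0.1 or less, 19 against ∆*Firre* and 14 against WT, most of them below 0.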

How the data were processed

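The authors sorted CLPs, made poly(A) libraries, trimmed the reads with cutadapt, mapped them to mm10 with TopHat2 2.1.1, and counted them per Gencode gene with featureCounts (per the labels and the study's methods). The deposited values are TPM, reads per gene length scaled to 1 total per library by the authors. The strand setting is not given in the sources used here. For each gene whose mean TPM reached 1, log2(TPM + 1) was modelled by limma (3.58.1, under R 4.3.3; eBayes with trend) with the 3 groups together. Two-sided p-values were Benjamini-Hochberg adjusted across all tested genes, and 0.1 was the threshold for a call.

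The step between TPM values gave back the reads: 99.99% of values above 0 came to whole reads within 0.02 reads. They gave depth, exact 95% Poisson intervals, and the alternative with limma-voom. Intervals and floors of 3 reads cover counting error only. Gene names matched 32799 of 47643 identifiers, and positions and upstream sequences came from RefSeq on GRCm38.p6, the build of mm10. *Spi1*, *Pirb*, *Ear3*, *Ear4*, *Ear7*, *Ear12*, *Rnase2a*, and *Rnase2b* found no match by symbol. Transcripts compared came from an older Gencode set.

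The 8 genes and all lists were chosen with earlier results of these data known. Named genes of the list were Gata factors, *Csf2rb*, *Csf2rb2*, and up to 6 per direction and comparison that were called with no overlap between groups. *Cebpa*, *Id2*, *Xbp1*, *Trib1*, *Il1rl1*, *Alox5ap*, and *Siglec5*, outside that rule, were named after their values were seen. Each of them was called lower against ∆*Firre*. *Irf8*, called higher, was named in the same way. The fit was tested on simulated data. Mouse numbers 8 and 11 occur in WT and ∆*Firre*, but deviations of same-numbered libraries correlated at −0.03 and −0.04. Alternatives were other pseudocounts, filters, scalings, thresholds, blocks, and fits, each library left out, and, chosen after seeing the data, a correction for GC content. Python 3.11.15, numpy 2.4.6, pandas 2.3.3, and scipy 1.17.1 were used.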

Additional observations from a re-analysis of the deposited data

Results flagged for a closer look

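In groups of 4, 1 library stood far from the other 3 in 8 of 79 sets of values compared. About 3.95 would be expected for independent sets of normally distributed values. The sets share libraries, and in some the other 3 values were all 0, so that number is only a rough guide. On the scale of log2(TPM + 1), *Ear1* was at 2.82 in WT mouse 6, with the other WT libraries at 0, and *Ccr3* was at 2.81 in ∆*Firre* mouse 8, with the others at 2.25 to 2.30. In WT mouse 6, *Csf2rb* was at 8.08 (others 6.43 to 6.54), *Csf2rb2* at 6.92 (others 5.19 to 5.46), and *Alox5ap* at 8.70 (others 7.79 to 7.89), the library in which the basophil and mast cell list was highest. *Irf8*, a factor of lymphoid and monocyte fate, was at 8.13 in WT mouse 10 (others 7.79 to 7.81). In rescue, *Itga4*, an integrin chain, was at 7.76 in mouse 3 (others 7.06 to 7.17), and *Ccr1* was at 0.36 in mouse 2, with the others at 0.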

How the results depend on the processing

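Of the 566 differences of single members recomputed under other settings, 550 moved by less than the within-group SD of the gene and 16 by more, mostly *Il5ra*, *Ear1*, and *Epx* under another pseudocount or limma-voom. The median of the 8 genes moved by less than the median within-group SD in every setting, an SD that is wide. Between ∆*Firre* and WT it was 0.66, and 1.20 with limma-voom, 1.03 with a pseudocount of 0.1, 0.26 with a pseudocount of 5, and 1.13 at a mean TPM of at least 5, which leaves 2 of the 8. Between rescue and ∆*Firre* it was −0.41, and −1.90, −1.36, −0.06, and −1.22 in these settings, −0.23 after the GC content correction, and 0.07 after quantile normalization, where its sign turned. Between rescue and WT it was 0.80, and 0.45 with a pseudocount of 5, and its sign turned at a mean TPM of at least 5, to −0.09. Over all genes, the median difference between rescue and WT was −0.21, and −0.03 after scaling by the median ratio.

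Between ∆*Firre* and WT, 3 genes were called. The count was 6 with no filter, 1 with only 2 groups in the fit, 1 with the library number range as a block, 1 to 5 with 1 library left out, and 0 with limma-voom, after the GC content correction, and among genes with a GC content alone. With the main test, 767 genes had an unadjusted p under 0.05. Between rescue and ∆*Firre*, 4043 genes were called, 2461 after the GC content correction and 2682 at an adjusted p of 0.05. Between rescue and WT, 3512 were called, 2263 with only 2 groups in the fit and 1989 after the GC content correction.

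*Il5ra* was the 1 member called in both rescue comparisons. Against ∆*Firre*, 0 members were called with a pseudocount of 5, with no filter, at a mean TPM of at least 5 (which leaves out *Il5ra*), with the median ratio, with quantile normalization, after the GC content correction, and at an adjusted p of 0.05. The count was 0 to 1 with 1 library left out, the 1 being *Prg2* without rescue mouse 1, *Ear1* without rescue mouse 2, and *Il5ra* without WT mouse 6, 8, or 11 or rescue mouse 3, and 2 with limma-voom, which added *Prg2*. Against WT, 0 were called at a mean TPM of at least 5, with quantile normalization, after the GC content correction, and at an adjusted p of 0.05, and 0 to 1 with 1 library left out. The cause was not tested. With the mouse number as a replicate block, 3, 4024, and 3511 genes were called, and no call of a member changed. The listed genes called stayed within 1.5 times 19 and 14 in every setting run. Low read numbers limit *Prg3*, *Ear1*, *Ear2*, and *Ear6* in most libraries, and *Ear2* in rescue mouse 1 too, where it had 10 reads.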
